A study of Mus musculus with 18 samples.

Results

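Aminoacyl-tRNA synthetases attach each amino acid to its transfer RNA. The genes described here are the 37 of 37319 listed mouse genes whose symbol has the synthetase form: 20 for cytosolic enzymes (Aars to Yars, with Farsa, Farsb and Eprs) and 17 for mitochondrial enzymes, whose symbols end in 2. The RNA was from cortex on the operated side of adult C57BL/6J male mice, bought at 8 to 10 weeks of age. Every mouse had received an adeno-associated virus in the left lateral ventricle 4 weeks before surgery, in which the neuron-directed promoter named SYN in the labels drove a short hairpin RNA. The hairpin targeted Tiparp (AAV-SYN-shRNA-TIPARP) or was a scramble (AAV-SYN-shRNA-Con). Surgery was transient middle cerebral artery occlusion (tMCAO), a model of focal stroke with reperfusion, or sham. The 6 groups hold 3 libraries each, with T for the Tiparp hairpin and C for the scramble: Sham_T and Sham_C had the sham operation, R24h_T and R24h_C were taken 24 h after tMCAO, and R28d_T and R28d_C 28 d after it. The labels do not say whether each library is a separate animal, and a p-value here reflects how much the libraries of a group vary. Values of a group are listed for libraries 1, 2 and 3 in that order.

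Each synthetase activates its amino acid with ATP and passes it to the matching transfer RNA, so the cytosolic set is needed for all nuclear-encoded protein synthesis. Mitochondria use a second set of enzymes, made in the nucleus and imported, to translate the few proteins of the mitochondrial genome. Gars and Kars make the glycyl and lysyl enzymes of both compartments, and glutaminyl-tRNA in mitochondria is made by mischarging and conversion, so that these amino acids have no separate gene ending in 2. The enzymes fall into 2 structural classes of unrelated fold, class I and class II. Some of the cytosolic ones sit together in the multisynthetase complex, held by scaffold proteins. Uncharged transfer RNA activates the kinase GCN2, which phosphorylates the initiation factor eIF2, and the transcription factor ATF4 then raises amino acid transport, amino acid synthesis and several cytosolic synthetases.

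The values are FPKM (fragments scaled to transcript length and to the mapped fragments of the library), a unit that gives no read totals. In the targeted gene the arms overlapped at each time, so T and C stand for the labels. Tiparp was at 4.17, 4.95 and 4.57 FPKM in Sham_T and 4.45, 4.76 and 3.77 FPKM in Sham_C, at 3.99, 4.999 and 3.005 FPKM in R24h_T and 6.66, 4.60 and 8.65 FPKM in R24h_C, and at 3.97, 4.06 and 3.72 FPKM in R28d_T and 4.46, 3.59 and 3.77 FPKM in R28d_C. Only the hairpin's target cells would lose the transcript, and in bulk tissue fewer cells of a type and less RNA per cell cannot be told apart. The 6 neuronal markers summed to 695 to 911 FPKM in 17 libraries and to 437 FPKM in R24h_C3. R24h_C3 also had 1682 FPKM of Ttr, a choroid plexus marker, which was high in Sham_T1, Sham_T2 and R28d_T2 too (624, 501 and 712 FPKM). R24h_T3 stands apart at the other end, with a summed level of 5 monocyte and neutrophil markers of 6.63 FPKM, against 36.1 to 219 FPKM in the other 24 h libraries. Genes with symbols starting mt- held 41.4% of all FPKM in R24h_T3 and 29.2 to 36.1% in the other 24 h libraries. In sham they held 38.4 to 41.6%. The part of this share in the 24 h differences was not tested.

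In sham cortex the cytosolic synthetases were the more abundant set, read per length in FPKM. Their group means over the 6 sham libraries ran between 3.73 and 65.5 FPKM with a median of 10.2 FPKM, against 0.708 to 7.39 FPKM with a median of 1.65 FPKM for the mitochondrial set. Nars, the asparaginyl enzyme, had the highest level of all members, at 61.8 to 67.3 FPKM over the 6 sham libraries. Hars, the histidyl enzyme, came next at 28.5 to 31.4 FPKM. Sars at 26.1 to 29.7 FPKM and Gars at 23.6 to 28.3 FPKM followed, where the ranges of Hars and Sars overlapped, as did those of Sars and Gars, while Gars lay below Hars. At the low end of the cytosolic set, Eprs, whose single chain charges both glutamate and proline, was at 3.42 to 4.001 FPKM and the valyl enzyme Vars at 4.10 to 4.49 FPKM. Aars2 and Iars2, the mitochondrial alanyl and isoleucyl enzymes, led the mitochondrial set at 6.75 to 7.91 and 4.94 to 6.15 FPKM, and these ranges did not overlap. Ears2, the glutamyl enzyme that also mischarges the glutamine transfer RNA, was at 0.433 to 0.850 FPKM, and Wars2, the tryptophanyl enzyme, at 0.953 to 1.14 FPKM. Valine was the one amino acid of the 18 comparisons between a cytosolic gene and its mitochondrial counterpart in which the mitochondrial gene was higher in sham, with Vars at 0.865 times the mean of Vars2. For asparagine the cytosolic gene was 56.6 times higher.

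Lars2, the mitochondrial leucyl enzyme, calls for a check, because in mouse data reads of the mitochondrial ribosomal RNA mt-Rnr2 can be assigned to it. Its level was 0.864, 1.26 and 0.894 FPKM in Sham_T, 0.732, 0.886 and 0.976 FPKM in Sham_C, 1.45, 1.05 and 1.06 FPKM in R24h_T, 1.37, 1.17 and 1.005 FPKM in R24h_C, 1.16, 0.868 and 0.840 FPKM in R28d_T and 0.938, 0.954 and 0.957 FPKM in R28d_C. The mt-Rnr2 transcript was at 1689.9 to 6598 FPKM over the 18 libraries. R24h_C3 held the highest mt-Rnr2 value and a Lars2 level within the range of the rest. Whether such reads entered the Lars2 values was not tested.

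At 24 h after tMCAO most cytosolic synthetase genes rose, while none of the mitochondrial ones passed the test. Of the 20 cytosolic genes, 13 were higher than in sham over both arms and 0 were lower, by limma on log2(FPKM + 1) with the arm as a term and Benjamini-Hochberg adjustment over all 14589 genes tested. Of all genes tested, 19.3% were higher and 5.38% lower. Of the 17 mitochondrial genes, 0 were called in either direction by that test, with 3 at an unadjusted p under 0.05, which 39.4% of all genes tested had. The median difference of the cytosolic genes was 0.50 on the log2(FPKM + 1) scale (range 0.13 to 0.75), that of the mitochondrial genes 0.08 (range -0.16 to 0.25), and that of all genes tested 0.10. This scale understates the change of genes of low FPKM, which most mitochondrial members are. On linear FPKM the ratio of the 24 h mean to the sham mean had a median of 1.48 over the cytosolic genes (1.10 to 1.85) and 1.10 over the mitochondrial genes (0.850 to 1.29), with 1.10 over all genes tested. The 7 cytosolic genes under 8 FPKM in sham had a median ratio of 1.32, and the 6 mitochondrial genes over 3 FPKM one of 1.09. Under median-ratio scaling of the libraries, which moved the median difference of all genes tested to -0.01, 7 cytosolic genes were higher and 1 mitochondrial gene, Aars2, was lower. The same scaling turned 2812 higher and 785 lower calls over all genes into 1735 and 1467.

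**Figure D1:**
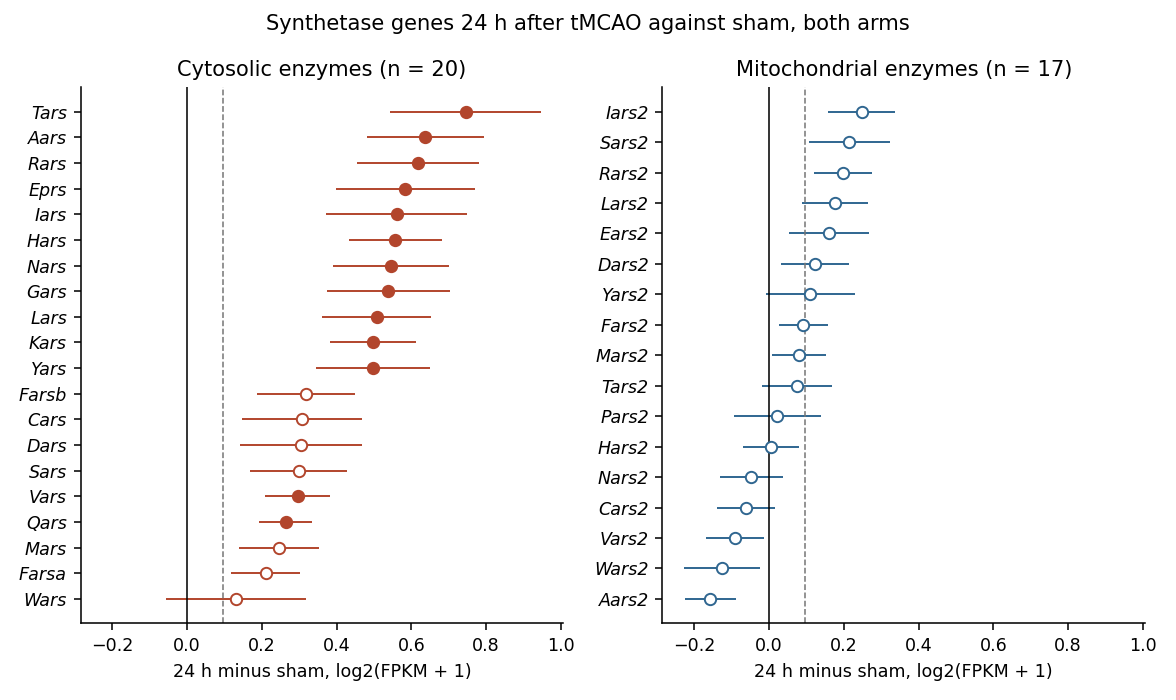
Difference between the 24 h and sham libraries for each synthetase gene (horizontal axis, log2(FPKM + 1), both arms) with its standard error as a bar. Filled points passed an adjusted p of 0.05, the dashed line is the median of all genes tested, and the 13 filled points all lie among the 20 cytosolic genes.

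The 6 genes with the smallest p were all cytosolic and all higher. Hars was at 39.6, 53.7 and 29 FPKM in R24h_T and 51.1, 44.3 and 52.9 FPKM in R24h_C, against 28.8, 28.5 and 29.7 FPKM in Sham_T and 31.4, 28.6 and 31.2 FPKM in Sham_C. Every R24h_C library and 2 of the 3 R24h_T libraries lay above all 6 sham libraries, and R24h_T3 lay within the sham range. The fit gave a difference of 0.56 ± 0.13 (adjusted p = 0.00949). Kars, the lysyl enzyme of both compartments and a member of the multisynthetase complex, was at 18.7, 20.3 and 12.6 FPKM in R24h_T and 22.6, 18.2 and 23.1 FPKM in R24h_C, against 12.6, 12.98 and 13.5 FPKM in Sham_T and 13.8, 13.05 and 12.6 FPKM in Sham_C. R24h_T3 alone of the 24 h libraries was below the sham range of Kars, and the fit gave a difference of 0.50 ± 0.12 (adjusted p = 0.0106). Aars, the alanyl enzyme, was at 24.6, 39.4 and 17.4 FPKM in R24h_T and 32.1, 23.02 and 25.96 FPKM in R24h_C, against 16.4, 17.2 and 15.1 FPKM in Sham_T and 15.7, 17.4 and 17.4 FPKM in Sham_C. All 6 libraries at 24 h exceeded all 6 sham libraries for Aars, R24h_T3 by a margin lost in rounding, with a difference of 0.64 ± 0.16 (adjusted p = 0.0132). 

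Rars, the arginyl enzyme of the multisynthetase complex, was at 17.5, 25.9 and 10.8 FPKM in R24h_T and 20.6, 14.5 and 20.1 FPKM in R24h_C, against 10.9, 12.02 and 11.2 FPKM in Sham_T and 10.5, 11.6 and 10.6 FPKM in Sham_C. R24h_T3 was again inside the sham range, the other 24 h libraries were above it, and the fit gave a difference of 0.62 ± 0.16 (adjusted p = 0.0192). Qars, the glutaminyl enzyme of the same complex, moved least among these genes, at 6.13, 5.57 and 4.94 FPKM in R24h_T and 6.76, 6.37 and 6.99 FPKM in R24h_C, against 5.03, 4.79 and 4.69 FPKM in Sham_T and 5.36, 4.81 and 4.80 FPKM in Sham_C. Its fit gave a difference of 0.26 ± 0.07 (adjusted p = 0.0200), with R24h_T3 overlapping the sham libraries. Tars, the threonyl enzyme, had the largest difference of all members, at 15.02, 27.01 and 9.16 FPKM in R24h_T and 21.8, 13.8 and 23.1 FPKM in R24h_C, against 9.97, 9.06 and 9.30 FPKM in Sham_T and 10.7, 10.1 and 10.3 FPKM in Sham_C. The other 24 h libraries lay above the sham range of Tars and R24h_T3 within it, and the fit gave a difference of 0.75 ± 0.20 (adjusted p = 0.0212).

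**Figure D2:**
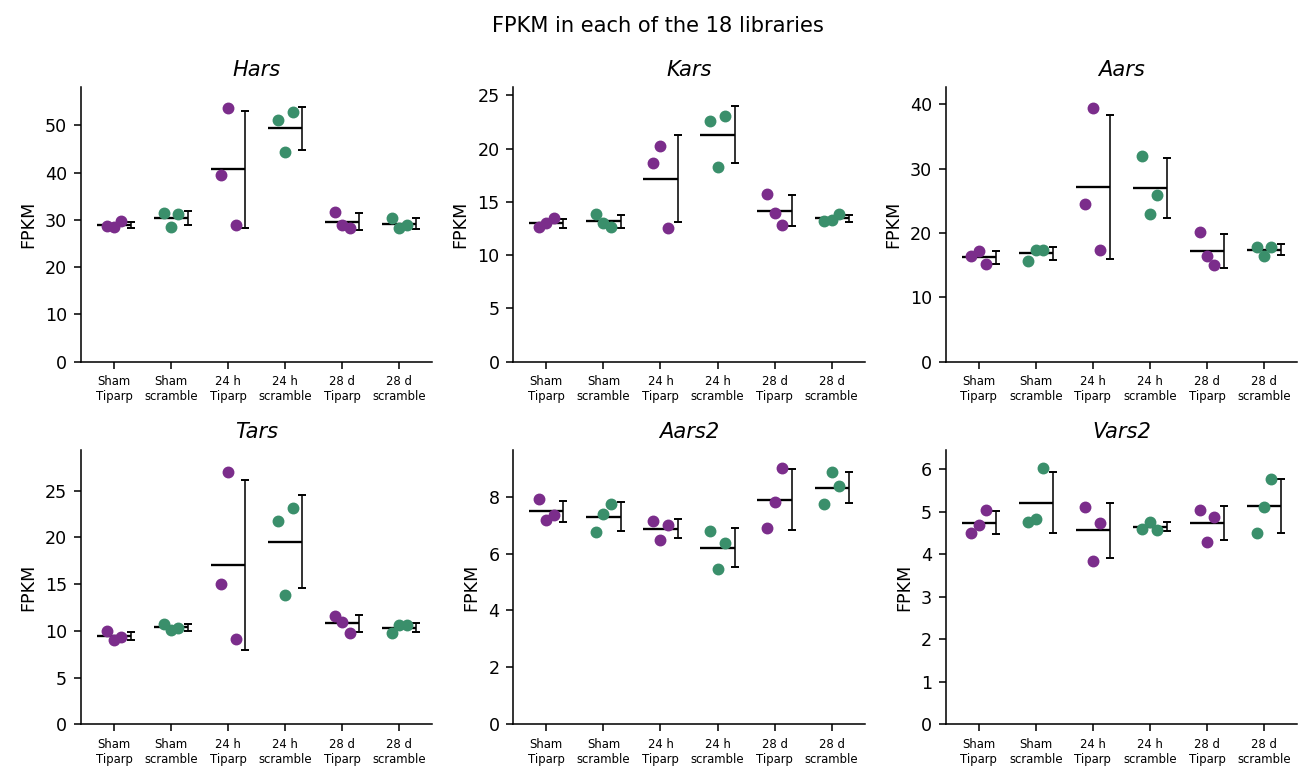
FPKM of 6 synthetase genes in each of the 18 libraries (points), with the group mean (line) and standard deviation (bar, n = 3), purple for the Tiparp hairpin and green for the scramble. For Hars, Kars, Aars and Tars the 24 h points spread upward except for 1 low R24h_T point, R24h_T3, while Aars2 and Vars2 stay near or under their sham level.

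The 7 other cytosolic genes that passed were Nars, Lars, Vars, Gars, Yars, Eprs and Iars. Nars averaged 98.98 FPKM at 24 h, against 65.5 FPKM in sham, a difference of 0.55 ± 0.15 (adjusted p = 0.0255). Its libraries were at 91.9, 143 and 64.9 FPKM in R24h_T and 117, 84.5 and 92.8 FPKM in R24h_C, against 65.5, 65.96 and 65.7 FPKM in Sham_T and 67.3, 61.8 and 66.7 FPKM in Sham_C, and R24h_T3 fell inside the sham range. Yars, the tyrosyl enzyme, shared with Aars the property that all 24 h libraries exceeded all sham libraries, at 12.2, 24.3 and 11.6 FPKM in R24h_T and 18.1, 12.99 and 15.7 FPKM in R24h_C, against 11.2, 10.9 and 10.6 FPKM in Sham_T and 9.68, 10.2 and 10.95 FPKM in Sham_C. Its fit gave a difference of 0.50 ± 0.15 (adjusted p = 0.0339). Genes whose 24 h and sham libraries did not overlap, with 24 h higher, made up 8.19% of all genes tested and 2 of the 20 cytosolic members, and 0 of the 17 mitochondrial ones. With R24h_T3 left out, a choice made after its values were seen, the count was 15 of 20 cytosolic and 0 of 17 mitochondrial members, against 18.9% of all genes tested.

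Eprs was at 4.57, 9.77 and 3.57 FPKM in R24h_T and 7.53, 4.93 and 8.05 FPKM in R24h_C, against 3.97, 3.92 and 4.001 FPKM in Sham_T and 3.52, 3.42 and 3.54 FPKM in Sham_C, with a difference of 0.58 ± 0.19 (adjusted p = 0.0383). R24h_T2 stood highest, and R24h_T3 within the sham range. Vars was at 6.01, 5.48 and 4.29 FPKM in R24h_T and 6.10, 4.86 and 6.61 FPKM in R24h_C, against 4.49, 4.17 and 4.43 FPKM in Sham_T and 4.10, 4.26 and 4.39 FPKM in Sham_C, with a difference of 0.30 ± 0.09 (adjusted p = 0.0306). For Vars the lowest 24 h value, in R24h_T3, again overlapped sham. The differences of Lars, Gars and Iars were 0.51 ± 0.15, 0.54 ± 0.16 and 0.56 ± 0.19, with adjusted p values of 0.0264, 0.0335 and 0.0466. Lars charges leucine and is also described as a leucine sensor for mTORC1. Iars charges isoleucine, and both belong to the multisynthetase complex.

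The 7 cytosolic genes that missed the threshold were Cars, Dars, Farsa, Farsb, Mars, Sars and Wars. Their differences ran between 0.13 and 0.32, all above 0, with adjusted p values between 0.0920 and 0.633. Farsa and Farsb encode the subunits of the phenylalanyl enzyme and had differences of 0.21 ± 0.09 and 0.32 ± 0.13. Wars, the tryptophanyl enzyme, is known as interferon-gamma induced in human cells. It was at 8.86, 18.4 and 9.12 FPKM in R24h_T and 12.96, 12.2 and 11.9 FPKM in R24h_C, against 10.3, 10.4 and 9.07 FPKM in Sham_T and 18.2, 9.26 and 9.37 FPKM in Sham_C. Sham_C1 was as high as R24h_T2 and well above the other sham libraries, and R28d_T3 was at 18.2 FPKM beside 9.11 to 11.3 FPKM in the other 28 d libraries. The fit for Wars gave a difference of 0.13 ± 0.19 (adjusted p = 0.633), the smallest difference of the cytosolic set. Interferon-gamma-induced genes, a list of 10, were higher at 24 h in 9 of the 9 tested, with Gbp2 at 2.94 ± 0.20, adjusted p = 2.26e-05. In the fit of the sham libraries alone only 3 of the 10 passed the filter on low values (1 FPKM in 3 libraries). The others of the 9 passed it through 24 h libraries and had to be high there, so the count is no independent result.

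By structural class, 7 of the 10 cytosolic class I enzymes and 6 of the 10 of class II were higher, with median differences of 0.40 and 0.52. Eprs was counted in class I alone, although it also charges proline, whose mitochondrial enzyme Pars2 is of class II. By complex, 6 of the 8 synthetase genes of the multisynthetase complex were higher (median 0.50), against 7 of the 12 cytosolic genes outside it (median 0.41). Within the complex, Mars at 0.25 ± 0.11 and Dars at 0.30 ± 0.16 did not pass. The difference between these subsets was not tested.

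Leaving out 1 library changed how many members passed. The count was 3 without R24h_C1, 7 without R24h_C3 or without Sham_C1, 5 without Sham_C2 or without Sham_C3, and 9 to 13 without R24h_C2 or any 1 library of Sham_T, R24h_T1 or R24h_T2. Without R24h_T3 it was 19, with Farsa, Farsb, Mars, Sars, Iars2 and Rars2 added to the 13. The calls over all genes moved as well: 1588 genes were higher without R24h_C1 and 4093 without R24h_T3, against 2812 with all 12 libraries. Aars, Hars and Kars passed without each of the 12 libraries in turn. Without Sham_T1, Sham_T2 and R24h_C3, the libraries of this comparison with high Ttr, 0 members passed and 1054 genes of all tested were still higher. That choice was made after the data were seen, and it leaves 9 libraries.

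The mitochondrial members were spread on both sides of 0, with 12 of 17 above it, or 8 of 17 under median-ratio scaling. The highest were Iars2 at 0.25 ± 0.09 (adjusted p = 0.0608), Sars2, the seryl enzyme, at 0.22 ± 0.11 (adjusted p = 0.159) and Rars2, the arginyl enzyme, at 0.20 ± 0.08 (adjusted p = 0.0800). The 3 genes below 0 with the smallest p were Aars2, Wars2 and Vars2. Aars2 was at 7.13, 6.49 and 7.02 FPKM in R24h_T and 6.79, 5.45 and 6.37 FPKM in R24h_C, against 7.91, 7.17 and 7.36 FPKM in Sham_T and 6.75, 7.39 and 7.76 FPKM in Sham_C, with a difference of -0.16 ± 0.07 (adjusted p = 0.113). Its 24 h libraries lay at or under the middle of the sham range, and R24h_C2 was the lowest of all. Wars2 was at 0.367, 0.881 and 1.10 FPKM in R24h_T and 1.03, 0.889 and 0.881 FPKM in R24h_C, against 0.958, 0.965 and 1.001 FPKM in Sham_T and 0.953, 1.04 and 1.14 FPKM in Sham_C, with a difference of -0.13 ± 0.10 (adjusted p = 0.381). R24h_T1 was the lowest, and R24h_T3 and R24h_C1 lay within the sham range. Vars2, the valyl enzyme, was at 5.12, 3.85 and 4.73 FPKM in R24h_T and 4.61, 4.77 and 4.57 FPKM in R24h_C, against 4.50, 4.69 and 5.04 FPKM in Sham_T and 4.76, 4.84 and 6.04 FPKM in Sham_C, with a difference of -0.09 ± 0.08 (adjusted p = 0.407) and overlapping groups.

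Iars2 libraries were at 7.997, 5.81 and 5.62 FPKM in R24h_T and 6.88, 6.16 and 7.02 FPKM in R24h_C, against 4.95, 6.15 and 5.45 FPKM in Sham_T and 5.03, 5.66 and 4.94 FPKM in Sham_C. R24h_T1 and R24h_C3 were above 6.15 FPKM, the highest sham value, as were R24h_C1 and R24h_C2. Ears2 passed the filter on low values (1 FPKM in 3 libraries) through 3 libraries at 24 h, so it had to be high there, and it was at 0.662, 1.14 and 0.631 FPKM in R24h_T and 1.07, 0.806 and 1.19 FPKM in R24h_C, against 0.780, 0.850 and 0.737 FPKM in Sham_T and 0.741, 0.433 and 0.704 FPKM in Sham_C, with a difference of 0.16 ± 0.11 (adjusted p = 0.282). Lars2 likewise passed it through 6 libraries at 24 h and 1 in sham. Ears2 and Lars2 values lay near 1 FPKM, where the pseudocount of 1 FPKM takes up much of a change.

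Set beside each other by amino acid, the cytosolic gene had the larger 24 h to sham ratio in 18 of 18 comparisons, which share some genes (Eprs with Ears2 and Pars2, Fars2 with Farsa and Farsb). The gap was widest for threonine, with a ratio of 1.85 for Tars and 1.08 for Tars2, and for alanine, with 1.64 for Aars and 0.885 for Aars2. It was narrowest for serine, with 1.26 for Sars and 1.22 for Sars2, and for phenylalanine, with 1.19 for Farsa and 1.11 for Fars2. The members of a comparison differ in FPKM level and come from the same libraries, so the 18 ratios are not independent.

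**Figure D3:**
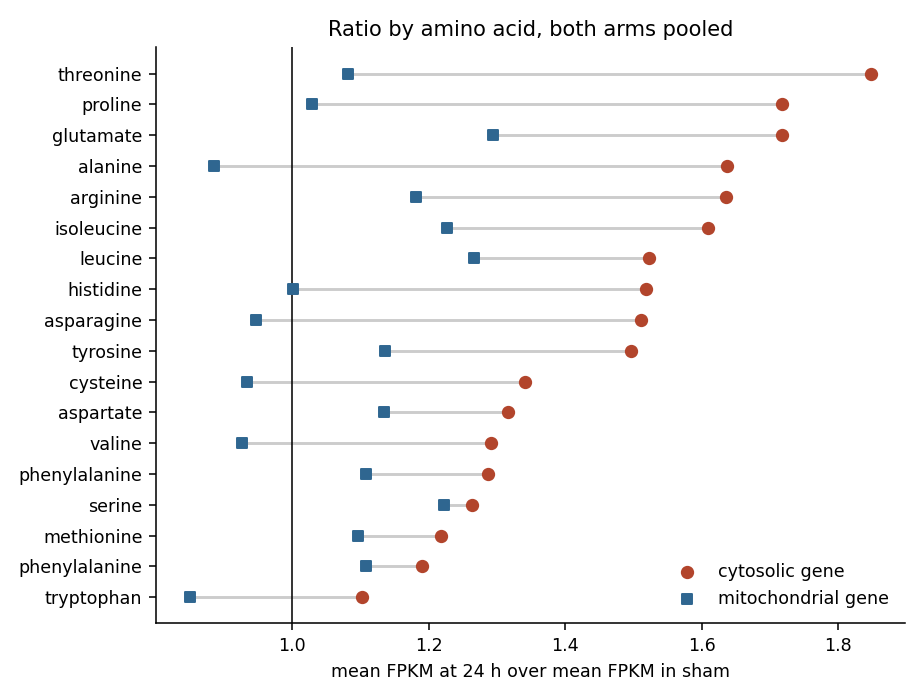
Ratio of mean FPKM at 24 h to mean FPKM in sham (horizontal axis, both arms pooled) for the cytosolic gene (circle) and the mitochondrial gene (square) of each amino acid. Each circle lies to the right of its square, from 1.26 and 1.22 for serine to 1.85 and 1.08 for threonine.

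Several cytosolic members carry in their promoter the core of the element through which ATF4 and C/EBP proteins bind, TGATGNAA. RefSeq promoters of build GRCm38.p6 (250 bases before to 50 bases after the start site) were matched for 12 cytosolic and 14 mitochondrial genes. The deposited values were made on mm9, so the coordinates are those of RefSeq alone. The core, on either strand, was present in 5 of 12 cytosolic genes, 0 of 14 mitochondrial genes and 3.97% of 32851 mouse promoters. With so small a share over all promoters, 0 of 14 does not set the mitochondrial genes apart from other genes. Below are 30 bases around the match in 4 of the cytosolic genes, 5′ to 3′ on the gene's strand, with the match in capitals.
Gars: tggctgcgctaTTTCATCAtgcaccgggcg
Iars: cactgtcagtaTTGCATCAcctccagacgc
Tars: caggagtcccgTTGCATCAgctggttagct
Yars: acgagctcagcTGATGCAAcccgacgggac
The Gars window is at chr6:55037960-55037989 (plus strand), with the match starting 30 bases before the start site, and the Tars window at chr15:11399655-11399684 (minus strand), with the match starting 15 bases before it. The Iars window at chr13:49682126-49682155 (plus strand) and the Yars window at chr4:129189895-129189924 (plus strand) hold the match from base 8 and base 4, counted from the RefSeq start site on. Of these 4, all but Yars have the reverse complement of the core, and Iars, Tars and Yars hold the same 8 bases, TTGCATCA or its complement TGATGCAA. At 24 h these 4 genes passed, and of the 7 cytosolic genes whose matched promoter lacks the core, Eprs, Kars and Qars passed while Dars, Farsa, Farsb and Sars did not. Cytosolic genes with no matched promoter are left out of this listing, and a link between the core and the calls was not tested. The other motifs searched on both strands were the NRF1-type palindrome (3 of 12 cytosolic, 2 of 14 mitochondrial genes, 4.60% of promoters), the E-box CACGTG (4 of 12, 1 of 14, 7.15%) and the STAT-type TTCNNNGAA (2 of 12, 1 of 14, 8.30%). A match is a description of these letters and not a measured site.

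Taken arm by arm, the 24 h difference was clearest in the scramble arm. In R24h_C against Sham_C, 14 cytosolic genes and the mitochondrial Rars2 were higher and 0 members lower, with 36 of the 37 tested, where 19.8% of all genes were higher and 4.24% lower. Under median-ratio scaling, 8 cytosolic genes were higher, Rars2 was not called and the mitochondrial Aars2 was lower. The median difference was 0.57 for the cytosolic and 0.16 for the mitochondrial genes, against 0.13 for all genes tested. Groups did not overlap for 19 cytosolic and 7 mitochondrial members, a property of 36.1% of all genes tested in this 3 against 3 comparison. Hars gave a difference of 0.68 ± 0.10 (adjusted p = 0.00958), Lars a difference of 0.73 ± 0.12 (adjusted p = 0.0128), and Rars2 a difference of 0.37 ± 0.09 (adjusted p = 0.0276). The number of members that passed, 15 with all 6 libraries, was 0 without R24h_C1 or without Sham_C2, 1 without Sham_C1 or without Sham_C3, 9 without R24h_C3 and 20 without R24h_C2. Over all genes tested, 260 were higher without R24h_C1 and 3651 without R24h_C2, against 2747 with all 6 libraries.

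In R24h_T against Sham_T, 0 of 35 members tested passed by limma, with 1 (Aars) at an unadjusted p under 0.05. Of all genes tested, 0.222% were called and 14.3% had such a p. The median differences were 0.32 for the cytosolic and -0.01 for the mitochondrial genes, with 0.06 for all genes. The 3 libraries differed widely. The cytosolic median against Sham_T was 0.28 in R24h_T1, 0.85 in R24h_T2 and -0.05 in R24h_T3, and in the scramble arm against Sham_C it was 0.73 in R24h_C1, 0.31 in R24h_C2 and 0.64 in R24h_C3. Of the 20 cytosolic genes, 15, 20 and 3 were above their Sham_T mean in R24h_T1, R24h_T2 and R24h_T3, and 20 were above the Sham_C mean in each R24h_C library. The mitochondrial medians were -0.08, 0.04 and -0.06 in R24h_T and 0.19, 0.06 and 0.16 in R24h_C. Without R24h_T3, Kars and Rars passed in the Tiparp arm, where 573 genes of all tested were then higher and 252 lower, against 30 called with all libraries. The endothelial markers summed to 42.5, 14.3 and 9.39 FPKM in R24h_T and 28, 17.4 and 39.7 FPKM in R24h_C, against 3.25 to 4.16 FPKM in sham, and the cortical excitatory neuron markers to 243, 195 and 229 FPKM in R24h_T and 190.0, 228 and 69.4 FPKM in R24h_C, against 201 to 230.1 FPKM in sham. Of the 24 h libraries, R24h_T2 had the highest cytosolic median, and R24h_T1 the highest endothelial and cortical excitatory neuron sums. The part of these cells in the synthetase values was not tested.

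**Figure D4:**
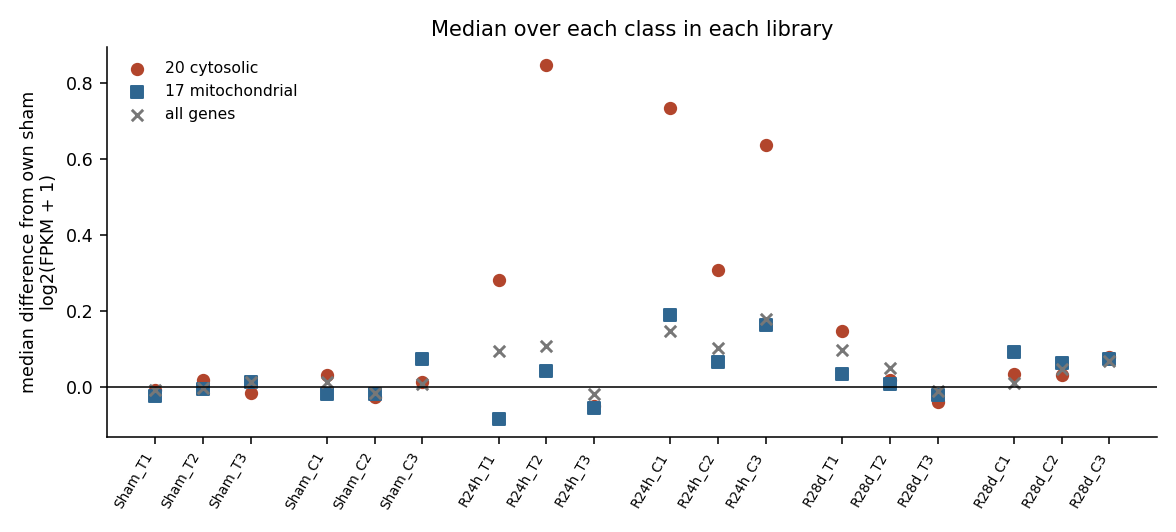
Median over the 20 cytosolic genes (circles), the 17 mitochondrial genes (squares) and all genes (crosses) of the difference from the mean of the sham libraries of the same arm (vertical axis, log2(FPKM + 1)) in each of the 18 libraries. Cytosolic medians are 0.28 to 0.85 in 5 of the 6 libraries at 24 h, R24h_T3 is at -0.05, and the 28 d libraries lie between -0.04 and 0.15.

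No member passed the test between the Tiparp and scramble arms at any time. Between R24h_T and R24h_C, 0 of 36 members tested passed by limma, and 0 of 14018 genes did (0%), with 0 members and 7.22% of genes at an unadjusted p under 0.05. The smallest p belonged to Dars, the aspartyl enzyme of the multisynthetase complex, at 5.86, 11.02 and 6.64 FPKM in R24h_T and 11.4, 8.51 and 13.6 FPKM in R24h_C. R24h_T2 lay inside the R24h_C range and the difference was -0.48 ± 0.26 (adjusted p = 0.668). Rars2 was at 5.28, 5.83 and 5.16 FPKM in R24h_T and 6.48, 6.09 and 7.11 FPKM in R24h_C, groups that did not overlap, with a difference of -0.24 ± 0.13 (adjusted p = 0.668). A non-overlap with the Tiparp arm lower held for 8.78% of all genes tested and 4 members.

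The test of the difference between the 24 h responses of the arms called 0 of 37 members and 0 of 14589 genes (0%), with 2 members and 10.9% of genes at an unadjusted p under 0.05. Rars2 had -0.35 ± 0.12 (adjusted p = 0.415) and Dars -0.63 ± 0.28 (adjusted p = 0.449). A p that misses the threshold does not show that the arms responded alike. Both comparisons use the same 24 h libraries.

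In sham, Sham_T against Sham_C gave 0 of 35 members tested by limma, with 0.21% of all genes called and 3 members and 12.8% of genes at an unadjusted p under 0.05. Farsb was at 12.4, 12.5 and 10.99 FPKM in Sham_T and 11, 9.66 and 9.94 FPKM in Sham_C, with a difference of 0.21 ± 0.08 (adjusted p = 0.334). Sham_T3 was level with Sham_C1. Eprs was at 3.97, 3.92 and 4.001 FPKM in Sham_T and 3.52, 3.42 and 3.54 FPKM in Sham_C, groups that did not overlap, as held for 10.6% of all genes with Sham_T higher, and had a difference of 0.14 ± 0.06 (adjusted p = 0.359). At 28 d, R28d_T against R28d_C gave 0 of 35 members and 0 of 13779 genes (0%) by limma, with 0 members and 2.52% of genes at an unadjusted p under 0.05. Yars was at 10.8, 10.05 and 9.10 FPKM in R28d_T and 11.5, 10.5 and 12.02 FPKM in R28d_C, and Farsb at 12.7, 12.3 and 11.6 FPKM in R28d_T and 11.2, 11.1 and 11.3 FPKM in R28d_C. The differences were -0.17 ± 0.09 and 0.11 ± 0.07, with an adjusted p of 0.994 for both. The test of the difference between the 28 d responses called 0 of 35 members and 0.00702% of genes. At an unadjusted p under 0.05 were 4.84% of genes and 1 member, Yars, at -0.24 ± 0.11 (adjusted p = 0.956). Rars2 was next at -0.25 ± 0.12.

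At 28 d no synthetase gene passed the test against sham. Over both arms 0 of 35 members tested passed against sham by limma, with 0.00702% of all genes called. At an unadjusted p under 0.05 were 1 member, Eprs, and 17.3% of genes. Without R28d_T3, Eprs and Dars passed, and 995 genes of all tested were then higher and 153 lower. The median difference was 0.05 for the cytosolic and 0.04 for the mitochondrial genes, with 0.04 for all genes tested. The members under the filter on low values at 28 d were Ears2 and Lars2. In the arms taken singly 0 members passed at 28 d by limma, with 0.0522% of genes called in the scramble arm and 0.0148% in the Tiparp arm, with 2 members beside 11.5% of genes (scramble) and 0 members beside 10.5% of genes (Tiparp) at an unadjusted p under 0.05. Hars was at 31.6, 28.95 and 28.2 FPKM in R28d_T and 30.4, 28.3 and 29.03 FPKM in R28d_C, and Tars at 11.6, 11 and 9.80 FPKM in R28d_T and 9.77, 10.6 and 10.6 FPKM in R28d_C, close to the sham values above. R28d_T1 had the highest cytosolic median of the 28 d libraries, at 0.15. It also had the highest 28 d sums of the markers of monocytes and neutrophils (114 FPKM), astrocytes (1173 FPKM), microglia and macrophages (210 FPKM), endothelium (10.9 FPKM) and striatal neurons (95.8 FPKM). It was not the highest in the other marker sums. The part of these cells in that value was not tested.

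Between 28 d and 24 h over both arms, all 20 cytosolic genes were below 0, with a median of -0.43, against -0.03 for the mitochondrial genes and -0.06 for all genes tested. The 1 member that passed was Hars, with a mean of 29.4 FPKM at 28 d and 45.1 FPKM at 24 h and a difference of -0.57 ± 0.13 (limma adjusted p = 0.0435), where 1.5% of all genes were lower. Rars missed the threshold at -0.68 ± 0.17 (adjusted p = 0.0526). This comparison shares its 24 h libraries with the one against sham, so its values are not a separate observation of the 24 h levels. The call of Hars held only without R24h_T3, where 15 members passed, or without R28d_T1, where 4 did, and leaving out any other 1 of the 12 libraries gave 0. Over all genes tested, 1927 were lower without R24h_T3 and 465 without R28d_T1, against 222 with all 12 libraries.

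Genes that act around the synthetases were described at 24 h over both arms by lists of known function. Of 28 genes of the ATF4 amino acid response, 26 were tested, 13 were higher and 0 lower, with a median of 0.61, where 19.3% of all genes tested were higher and 5.38% lower, with a median of 0.10. In the fit of the sham libraries alone 22 of the 28 passed the filter on low values, so the rest of the 26 passed it through 24 h libraries. Nupr1, a stress-induced nuclear protein, was at 1.70 ± 0.22, adjusted p = 0.000732. Slc38a2, a neutral amino acid transporter, was at 0.83 ± 0.16, adjusted p = 0.00408, Eif4ebp1, an inhibitor of cap-dependent initiation, at 1.24 ± 0.23, adjusted p = 0.00414, and Slc3a2, the heavy chain of amino acid exchangers, at 0.97 ± 0.20, adjusted p = 0.00609. Atf4 itself did not pass at 0.30 ± 0.20, adjusted p = 0.302, nor did the serine synthesis gene Phgdh at -0.24 ± 0.20, adjusted p = 0.399.

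Slc38a2 was at 41.7, 37.8 and 21.3 FPKM in R24h_T and 43.7, 26.6 and 34.5 FPKM in R24h_C, against 17.5, 16.6 and 19.5 FPKM in Sham_T and 18.1, 19.5 and 19.03 FPKM in Sham_C. R24h_T3 was the lowest of the 24 h libraries for Slc38a2 and above all 6 sham libraries, while for Hars and Tars it lay within the sham range. By library, the median of the amino acid response list against the own sham mean was 0.14 in R24h_T1, 1.37 in R24h_T2, -0.07 in R24h_T3, 1.01 in R24h_C1, 0.33 in R24h_C2 and 0.83 in R24h_C3. R24h_T2, R24h_C1 and R24h_C3 were the highest 3 in this list and in the cytosolic synthetases, and R24h_T3 the lowest in both. That order is not particular to these lists. In the median of all genes the same libraries were the highest 3 (0.11, 0.15 and 0.18) and R24h_T3 the lowest (-0.02). It held too for the genes for transfer RNA ends and export, the mitochondrial translation factors and the cytosolic elongation factors, but not for the mitochondrial synthetases. The libraries, depth and normalization are the same for both lists, and no test was made of the likeness.

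**Figure D5:**
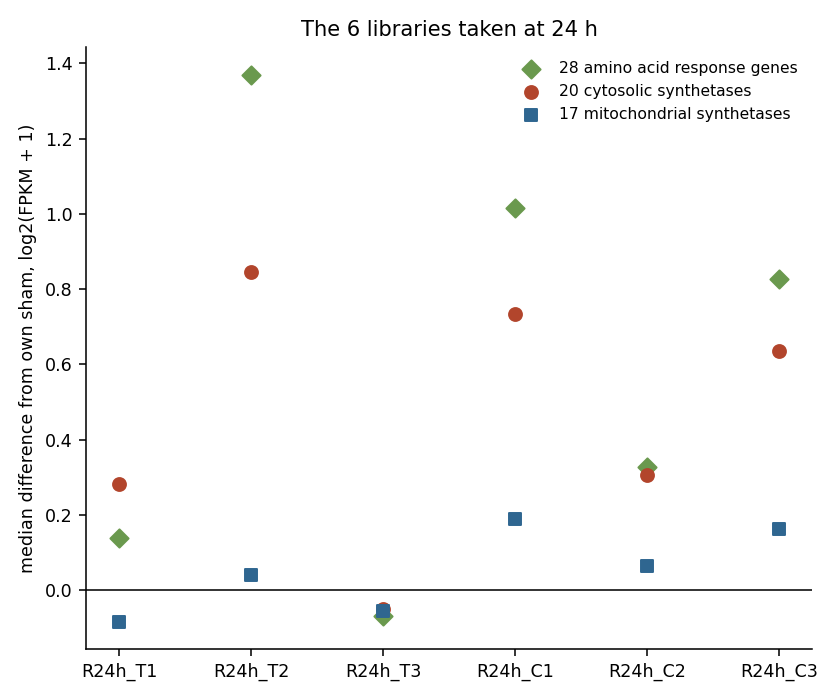
Median difference from the sham mean of the own arm (vertical axis, log2(FPKM + 1)) of 28 amino acid response genes (diamonds), the 20 cytosolic (circles) and the 17 mitochondrial synthetases (squares) in the 6 libraries at 24 h. Diamonds and circles are highest in R24h_T2 (1.37 and 0.85) and lowest in R24h_T3 (-0.07 and -0.05), while squares stay between -0.08 and 0.19.

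The counts of the smaller lists stand beside the same 19.3% of all genes tested that were higher. Of the kinases that phosphorylate eIF2 and their sensors, 3 of 6 were higher: Eif2ak2 (PKR) at 0.82 ± 0.13, adjusted p = 0.00161, Eif2ak1 (HRI) at 0.32 ± 0.08, adjusted p = 0.0182 and Eif2ak3 (PERK) at 0.40 ± 0.11, adjusted p = 0.0195. Eif2ak4, which encodes GCN2, the sensor of uncharged transfer RNA, was at -0.00 ± 0.07, adjusted p = 0.996. Of the multisynthetase complex scaffold, 1 of 3 was higher, Aimp1 at 0.36 ± 0.09, adjusted p = 0.0121, with Aimp2 at 0.10 ± 0.10, adjusted p = 0.485 and Eef1e1 at 0.42 ± 0.18, adjusted p = 0.107. Of the genes for transfer RNA ends and export, 4 of 6 were higher: Ssb (La) at 0.41 ± 0.09, adjusted p = 0.00939, the export receptor Xpot at 0.39 ± 0.10, adjusted p = 0.0138, the ligase Rtcb at 0.39 ± 0.11, adjusted p = 0.0254 and Trnt1, which adds the terminal CCA, at 0.30 ± 0.10, adjusted p = 0.0458.

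Among cytosolic elongation factors and trans-editing genes the share higher was under that 19.3%, and among mitochondrial translation factors it was close to it. Of the 7 cytosolic elongation factor genes 1 was higher, Eif5a at 0.36 ± 0.11, adjusted p = 0.0375, and Eef2 was at 0.14 ± 0.09, adjusted p = 0.284. Of 7 trans-editing and synthetase-like genes 1 was higher, Prorsd1 at 0.33 ± 0.10, adjusted p = 0.0345. On the mitochondrial side, 2 of 10 translation factors were higher, the elongation factor Gfm1 at 0.40 ± 0.11, adjusted p = 0.0190 and the initiation factor Mtif2 at 0.22 ± 0.07, adjusted p = 0.0446. Of the amidotransferase that converts mischarged mitochondrial glutamine transfer RNA, 1 of 3 subunits was higher, Gatc at 0.27 ± 0.06, adjusted p = 0.0119. In each of these lists 0 genes were lower.

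Some members share exon bases with neighbours. By the GENCODE M21 gene models, 14 of the 37 overlap another gene's exons, and for 1 of them, Aars, the neighbour is on the same strand. Exosc6, an exosome subunit, covers 14.3% of the Aars exon bases and was at 0.898 FPKM on average over 18 libraries, with a 24 h difference of -0.04 ± 0.15 (limma adjusted p = 0.872). The largest overlap is that of Iars2 with Rab3gap2 on the opposite strand, 22.9% of the Iars2 exon bases. Rab3gap2 was at 0.20 ± 0.10 (limma adjusted p = 0.155). Farsb shares 9.47% of its exon bases with Sgpp2 on the opposite strand, which was higher, at 0.47 ± 0.13 (limma adjusted p = 0.0257). Mars shares 68 bases with Ddit3, a stress-induced transcription factor on the opposite strand, which was at 0.62 ± 0.23, adjusted p = 0.0654. Hars and Hars2 share 195 exon bases on opposite strands and moved apart, at 0.56 ± 0.13 and 0.01 ± 0.08. The libraries were made to keep strand, per the labels' protocols, but whether the counting used it is not given in the sources used here, so opposite-strand overlaps remain uncertain.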

How the data were processed

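Gene-level FPKM values of 18 poly(A) RNA libraries were deposited by the authors. Per the submitters' processing notes, HISAT, StringTie and edgeR were used with genome build mm9; versions are not given in the sources used here. Per the labels' protocols, the libraries were stranded, paired-end and carried unique molecular identifiers; how these were used in counting is not given in the sources used here. FPKM gives no read totals, so no depth or counting interval is printed.

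The 37 members were found by their symbols. Genes with at least 1 FPKM in 3 libraries of a fit were tested with limma 3.58.1 (R 4.3.3) on log2(FPKM + 1), with an intensity trend, Benjamini-Hochberg adjustment over all genes tested and a threshold of 0.05. Fits over both arms had the arm as a term and used the groups compared, 12 comparisons in all. Differences are given ± their standard error. The fit was tested on simulated data with known changes and with independent noise of equal size in every group. That setting does not cover the wider spread of the 24 h libraries. Other values were computed with Python 3.11.15 and pandas 2.3.3. Members, gene lists and tests were chosen with earlier results of these data known. Named in full are the 6 members with the smallest p at 24 h, the 3 on the other side of 0, the 2 with the smallest p between arms at each time, the 2 highest and 2 lowest per compartment, Wars, Lars2, and up to 4 called genes per list; others are named beside counts. Alternatives were array weights, a replicate block, no filter, a pseudocount of 0.1 FPKM, leaving out single libraries, median-ratio scaling, and a fit of all 18 libraries at once. Promoters and start sites are RefSeq's (GRCm38.p6), and overlaps were taken from GENCODE M21. For 19 of the 27 member promoters the first 30 bases from the start site on were found in a GENCODE transcript of the gene. The promoter sequence of 1 further member is not reported here.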

Additional observations from a re-analysis of the deposited data

How the results depend on the processing

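Of 246 values over 18 counts and medians recomputed under alternatives, 206 were kept and 40 moved. A count was kept if it was equal or close in ratio, and a median if it moved by less than its standard deviation between libraries. For the cytosolic median in the Tiparp arm at 24 h that deviation was 0.454, against a median of 0.317. Leaving out 1 library there gave medians of 0.139 to 0.514, all counted as kept, so the label says little for that median. Over both arms the deviation was 0.334, against a cytosolic median of 0.497. The kept values include counts of 0 in comparisons where almost no gene of all tested was called. Among the member genes called in the main fits, taken singly, 0 changed direction. Over both arms at 24 h, 13 members passed; 5 did with no filter, 8 with median-ratio scaling (7 higher, Aars2 lower) and 0 without Sham_T1, Sham_T2 and R24h_C3 together, an alternative chosen after seeing the data, as was leaving out R24h_C3 and R24h_T3 together, which gave 16. Leaving out 1 library gave 3 to 19. The mitochondrial median was -0.00315 with scaling. In the scramble arm 15 members passed; 5 did with no filter, 9 with scaling (8 higher, Aars2 lower, Rars2 not called), 24 with array weights, and 0 to 20 with 1 library left out, and the mitochondrial median was 0.251 with a pseudocount of 0.1 FPKM and 0.0612 with scaling. In the Tiparp arm leaving out 1 library gave 0 to 2 at 24 h. Between 28 d and 24 h, 1 member passed; 0 did with no filter, 2 with scaling, 12 with array weights, 12 with all 18 libraries in 1 fit, and 0 to 15 with 1 library left out. Against sham, 28 d gave 0 to 2 with 1 library left out over both arms and 2 with array weights in the Tiparp arm. The calls over all genes moved with these counts. Array weights gave 5473 higher and 2088 lower genes in the scramble arm at 24 h, and 796 higher and 1638 lower genes between 28 d and 24 h. In the Tiparp arm at 28 d they gave 1717 higher and 690 lower genes. The cause of these changes was not tested.

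Libraries with the same replicate number were not more alike than others. Deviations of 45 same-numbered pairs correlated between -0.417 and 0.210 (median -0.008), with 4 over 0.1. Those of 90 other-numbered pairs correlated between -0.334 and 0.406 (median 0.015), with 18 over 0.1. With a replicate block, 9 members passed over both arms at 24 h, 7 in the scramble arm and 0 between 28 d and 24 h. FPKM without read totals limits what can be said of mitochondrial members near 1 FPKM.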
